A study of Mus musculus with 12 samples.

Results

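The measurement described here is a difference of responses in CH12F3-2A, a line of mouse B lymphoma cells. For each gene, the log2 change after a stimulus called CIT was measured in cells with a guide against Nop16, and the log2 change of the same gene in cells with a non-targeting guide was subtracted from it. Values below 0 mean that CIT moved the gene less upward, or further downward, in the cells with the Nop16 guide. Every gene that passed a filter on low counts was taken in, 16794 of the 56941 genes in the table, with no choice by effect. All cells had been transfected with the Cas9 plasmid pX459, carrying either sgNop16 or the non-targeting guide sgCtr, and 72 h of puromycin selection had followed. Cells then got no stimulus (sgCtr_no and sgNop16_no) or were kept for 24 h in CIT (sgCtr_CIT and sgNop16_CIT), with 3 libraries in each of the 4 groups. CIT combines anti-CD40L as the labels name it (1 μg/ml), mouse IL-4 (20 ng/ml) and human TGF-β (1 ng/ml). The series asks about NOP16 in class switching from IgM to IgA, which CIT starts in this line. The Nop16 arm rests on 1 guide, and the labels do not say whether the cells were a pool or a clone.

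NOP16 is a nucleolar protein of the assembly of the large ribosomal subunit, and its gene is a target of the growth regulator MYC. In B cells, signals through CD40 act mainly on NF-κB factors, IL-4 acts through STAT6 and TGF-β through SMAD proteins, and together they open heavy chain constant genes for switching. IL-4 and CD40 signals also raise the MHC class II genes, which B cells use to present antigen to T helper cells and whose promoters are driven by the coactivator CIITA. MYC drives genes of nucleotide supply, ribosome production and translation. The integrated stress response, through ATF4, drives amino acid synthesis and tRNA charging genes, and the unfolded protein response drives chaperones of the endoplasmic reticulum.

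CIT responses differed between the guides at 358 genes, 2.13% of those tested (edgeR quasi-likelihood F test, Benjamini-Hochberg adjusted p under 0.05). The difference was below 0 at 210 genes (1.25% of those tested) and above 0 at 148 (0.881%). With library totals in place of TMM scaling the split was 271 below and 105 above 0. Most differences were small. Their median size was 0.32 on the log2 scale, and 49 genes differed by at least 1.5-fold and 24 by at least 2-fold. Over all 16794 genes the median difference was 0.0069, with 8609 values above 0 and 8185 below. A test against a minimum of 1.5-fold called 1 gene, Prickle1. Of the 358 calls, 152 (47 above and 105 below 0) held in each of 12 leave-one-out fits, each of which dropped 1 library, and no gene called in both such a fit and the full one changed sign. The plot of the CIT response with each guide shows the called genes close to the diagonal on either side.

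**Figure D1:**
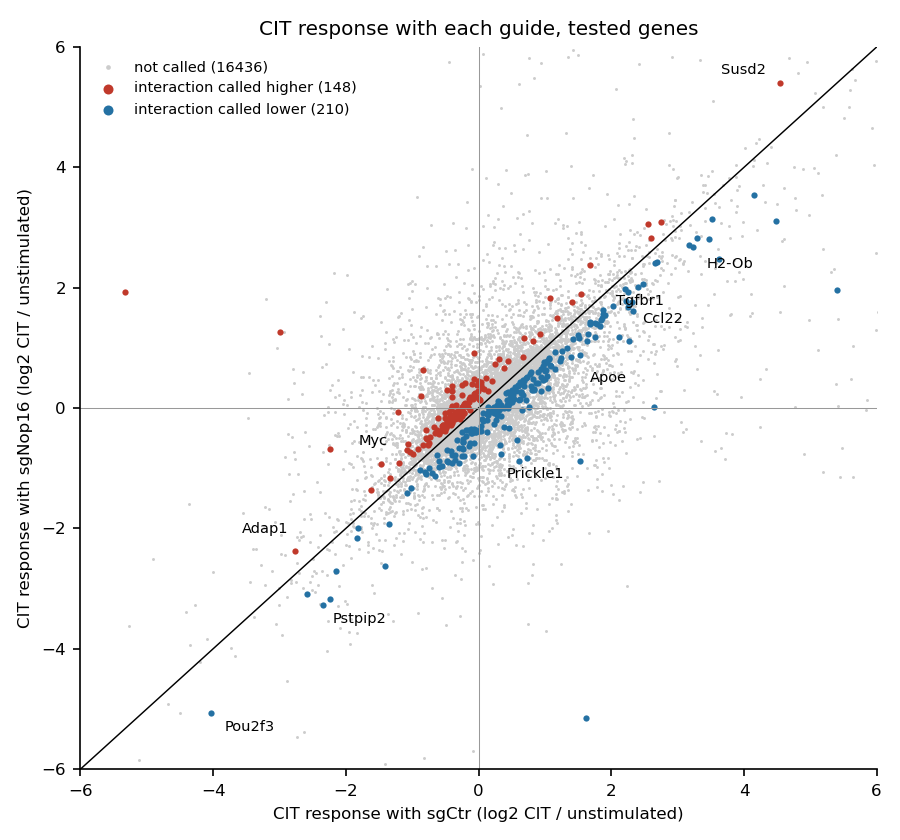
Each point is 1 of the 16794 tested genes, with its log2 CIT response in sgCtr cells on the x axis and in sgNop16 cells on the y axis; red and blue points are the 148 and 210 genes whose responses differed, and the line marks equal responses. The blue points lie mostly below the line at positive responses and the red points mostly above it at small negative responses; 201 genes, 5 of them called, lie beyond the limit of 6 on an axis.

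Nop16 itself did not pass the test. Its mRNA was at 104, 108 and 107 CPM (counts scaled to library size) in the 3 sgCtr_no libraries and at 85.9, 82.4 and 88.6 CPM in the sgNop16_no libraries. With CIT it was at 78.8, 73.1 and 79.3 CPM in sgCtr and at 64.7, 66.3 and 66.2 CPM in sgNop16 libraries. The sgNop16 libraries were thus the lower ones in each state, without overlap, and most of the mRNA was still present. The mRNA level does not show how far the gene was edited or how much NOP16 protein was left. The difference of responses was 0.08 ± 0.06 (SE, adjusted p = 0.645).

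Total counts per library lay between 38866418 and 48615177, TMM factors between 0.985 and 1.013, mitochondrial genes between 2.72 and 3.08% of counts, and the 10 most abundant genes between 4.45 and 4.89%. Of the B cell markers Cd79a, Cd79b, Pax5, Ms4a1, Ighm and Cd74, none was at 0 in any group. The summed level of 6 T cell markers lay between 0.526 and 2.6 CPM over all libraries. Of these, Cd3d, Cd3e and Cd3g had group means of at most 0.159 CPM, and Cd4 and Trac reached 1.15 and 0.828 CPM in sgNop16_no. The macrophage markers Lyz2 and Cd14 were at 0 counts in all libraries, as were the fibroblast markers Col1a2, Dcn and Pdgfra. A further fibroblast marker, Col1a1, had group means of 0.517 to 0.687 CPM, and 4 erythroid markers summed to between 0.858 and 2.0 CPM. The summed level of the 5 macrophage markers Adgre1, Itgam, Csf1r, Lyz2 and Cd14 lay between 1.2 and 2.1 CPM in sgCtr_no, 1.5 and 2.12 in sgNop16_no, 4.34 and 5.92 in sgCtr_CIT and 7.07 and 9.8 in sgNop16_CIT libraries, so it was higher with CIT and, after CIT, higher with sgNop16 without overlap. Csf1r held most of it with CIT, at group means of 4.54 CPM in sgCtr_CIT and 7.75 CPM in sgNop16_CIT, and its responses differed by -0.08 ± 0.36 (adjusted p = 0.963). No library stood apart from its group in these values. On a longer list of 16 T cell markers, 6 were tested and 1, Lck, was called below 0 (-0.24 ± 0.05, adjusted p = 0.0252). Lck was at group means of 186 to 211 CPM, and its call held in 7 of 12 leave-one-out fits (highest adjusted p 0.0737). A longer list of 11 erythroid markers summed to between 463 and 671 CPM, and 0 of its 7 tested genes were called.

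The MHC class II pathway was the list with the largest share of calls below 0. Of its 18 tested genes, 10 passed the test with a difference below 0 and 0 above, 17 had values below 0, and the median was -0.26. The list was written after values had been seen, so its count is a description. The called members were the chain genes H2-Aa, H2-Ab1 and H2-Eb1 and the pseudogene H2-Ea-ps, the peptide loading genes H2-DMa and H2-DMb2, the loading modulators H2-Oa and H2-Ob, the invariant chain Cd74, and Ciita. Stretches of 150 bases just upstream of the annotated starts of H2-Aa, H2-Eb1 and H2-Oa are shown, since each holds the Y box CTGATTGG (in capitals), the site read by NF-Y in class II promoters. They are 5′ to 3′ in the direction of the gene, from RefSeq on build GRCm38.p6, at chr17:34287824-34287973 (minus strand), chr17:34305717-34305866 (plus strand) and chr17:34092229-34092378 (plus strand).
H2-Aa: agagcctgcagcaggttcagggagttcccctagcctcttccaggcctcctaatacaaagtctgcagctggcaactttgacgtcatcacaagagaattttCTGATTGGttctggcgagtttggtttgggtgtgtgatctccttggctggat
H2-Eb1: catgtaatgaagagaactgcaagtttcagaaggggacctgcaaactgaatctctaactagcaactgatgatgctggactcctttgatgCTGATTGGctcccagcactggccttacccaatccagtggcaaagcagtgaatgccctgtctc
H2-Oa: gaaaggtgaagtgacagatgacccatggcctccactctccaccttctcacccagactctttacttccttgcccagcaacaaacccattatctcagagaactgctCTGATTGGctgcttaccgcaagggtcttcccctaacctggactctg
The Y box began 51, 62 and 46 bases before the start in these genes. Over windows from 250 bases before to 50 after the start, read on both strands, 4 of 13 class II pathway genes in the promoter table held it, with H2-Eb2 as the fourth, against 6.83% of all 10307 tested genes in the table, 7.01% of 157 called below 0 and 12.8% of 109 called above 0. The share was 30.8% in the class II list, 34.4% in the unfolded protein response list (11 of 32) and 33.3% in the integrated stress response list (9 of 27), whose calls were above 0. These counts do not say whether a site is used.

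H2-Eb1 encodes the β chain of I-E. It was at 277, 260.5 and 265 CPM in sgCtr_no and 355, 354 and 357 CPM in sgNop16_no libraries, and after CIT at 897, 955 and 920.0 CPM in sgCtr and 940.4, 919.5 and 953 CPM in sgNop16 libraries. The unstimulated groups did not overlap, with sgNop16 the higher, and the stimulated groups did. Its log2 CIT response was 1.79 with sgCtr and 1.40 with sgNop16, a difference of -0.39 ± 0.04 (adjusted p = 6.9e-05). H2-Aa, the α chain gene of I-A, had the same order, with 395, 393 and 408 against 481, 492 and 487 CPM without CIT and 1259, 1285 and 1265 against 1273, 1289 and 1279.6 CPM with it (-0.28 ± 0.03, adjusted p = 7.39e-05). Its partner H2-Ab1 differed by -0.38 ± 0.05 and the invariant chain Cd74 by -0.23 ± 0.03. Ciita was at 96.3 ± 1.89 (SD, n = 3) in sgCtr_no and 110.2 ± 4.50 CPM in sgNop16_no, and at 620.4 ± 14.6 and 590.1 ± 10.04 CPM with CIT (-0.27 ± 0.04, adjusted p = 0.00477). H2-DMa, at -0.24 ± 0.06 (adjusted p = 0.0456), was the member whose call did not hold in every leave-one-out fit, with calls in 2 of 12 and a highest adjusted p of 0.113.

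The members split by state. Of the 10 called class II genes, 8 were called higher in sgNop16 cells before CIT (median guide difference over the 10 of 0.27 on the log2 scale), and 0 were called higher after it (median 0.0017). H2-Oa and H2-Ob made up the rest. The 10 were picked by the change between these guide differences, so a drop from before to after CIT follows from the choice. Over all 18 tested members, 10 were called higher and 1 lower before CIT, and 0 and 3 after it. H2-Ob was at 14.4, 15.004 and 14.1 CPM in sgCtr_no and 14.6, 14.5 and 16.0 CPM in sgNop16_no, which overlapped. With CIT it reached 134, 139.7 and 136 CPM in sgCtr but 93.2, 100.5 and 94.3 CPM in sgNop16 libraries, with no overlap. Its difference of responses was -0.56 ± 0.07 (adjusted p = 0.000664), and that of H2-Oa -0.57 ± 0.09 (adjusted p = 0.00411). In bulk RNA, less of a transcript per cell and fewer cells with it cannot be told apart. The O chains pair to form the complex that restrains peptide loading by DM. The plot of guide differences before and after CIT shows both shapes.

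**Figure D2:**
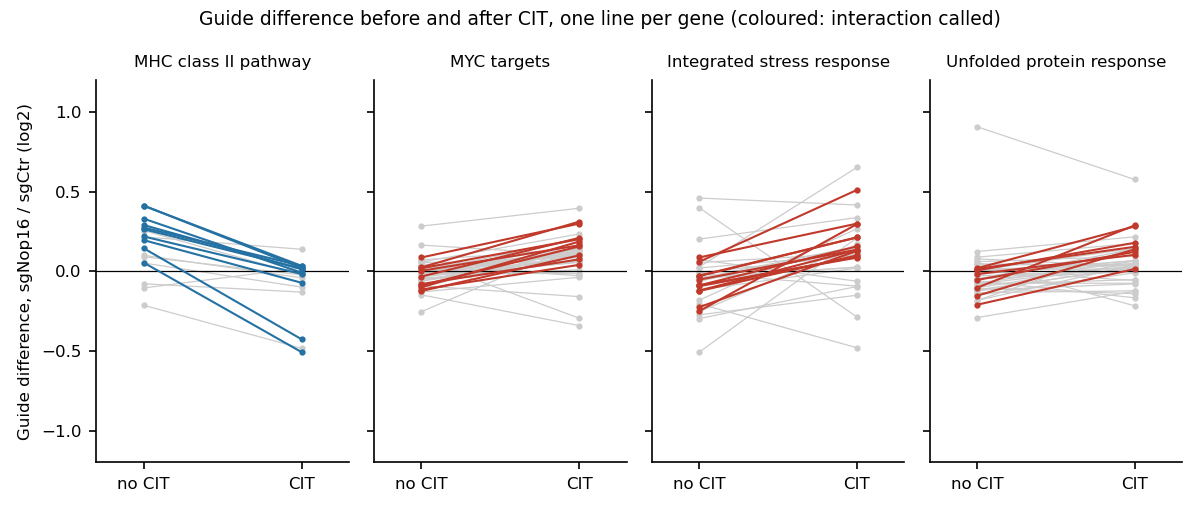
Each line joins 1 gene's log2 difference between sgNop16 and sgCtr cells without CIT (left) and with CIT (right), for 4 gene lists; coloured lines are genes whose CIT responses differed (red above 0, blue below 0). In the class II panel 8 of the 10 blue lines run from about 0.2 to 0.4 down to about 0, and in the other panels the red lines run from 0 or below to above 0.

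Ccl22, a chemokine gene that answers both CD40 and IL-4, shared the smallest adjusted p, 7.04e-07, with Cybb and Prickle1. It was at 559.9, 595 and 578 CPM in sgCtr_no and 1169, 1188 and 1149 CPM in sgNop16_no libraries. With CIT it was at 2837, 2906 and 2872 CPM in sgCtr and at 3804, 4082 and 3968 CPM in sgNop16 libraries. The sgNop16 libraries were higher in both states, with no overlap. The log2 response was 2.31 with sgCtr and 1.76 with sgNop16 (-0.56 ± 0.04). On the linear scale the sign turned, with a rise larger by 488 ± 84.3 CPM in sgNop16 cells.

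In the lists of genes that answer the 3 stimuli, more calls were below 0 than above, and most members were not called. Of 27 tested IL-4 and STAT6 targets, 9 had values above and 18 below 0, with a median of -0.12. Among them 9 were called below 0 and 1 above. Those below were Ccl22, 7 class II pathway genes (H2-Aa, H2-Ab1, H2-Eb1, H2-DMa, H2-DMb2, Cd74 and Ciita) and Bcl2l1, a survival gene. The one above was Il2ra, the α chain of the IL-2 receptor, at 7.54 ± 0.656, 4.13 ± 0.981, 5.47 ± 0.252 and 6.26 ± 1.04 CPM in sgCtr_no, sgCtr_CIT, sgNop16_no and sgNop16_CIT (1.06 ± 0.25, adjusted p = 0.0385). The Il2ra call held in 2 of the 12 leave-one-out fits (highest adjusted p 0.102). Of 40 CD40 and NF-κB targets, 19 had values above and 21 below 0, with a median of -0.0096. Among them 5 were called below 0 and 0 above. These were Ccl22, the NF-κB subunit gene Rel, the BCL2 family genes Bcl2a1d (-0.44 ± 0.06) and Bcl2l1 (-0.34 ± 0.08), and the costimulatory ligand gene Cd86 (-0.21 ± 0.05). Rel was at 192, 199 and 188 CPM in sgCtr_no and 207, 196 and 212 CPM in sgNop16_no. With CIT it was at 291, 293 and 296 CPM in sgCtr and 229, 223 and 227 CPM in sgNop16, where the groups did not overlap (-0.46 ± 0.05, adjusted p = 7.16e-05). The calls of Bcl2l1 and Cd86 held in 3 and 3 of 12 such fits (highest adjusted p 0.115 and 0.108).

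Of 32 TGF-β and SMAD targets, 15 had values above and 17 below 0, with a median of -0.12. Their median log2 CIT response was 0.84 with sgCtr and 0.93 with sgNop16. Among them 4 were called below 0 and 2 above. Both receptor genes were among those below. Tgfbr1 was at 55.3, 60.5 and 57.1 CPM in sgCtr_no and 56.8, 59.3 and 60.5 CPM in sgNop16_no, which overlapped, and with CIT at 504, 534 and 513 against 390.0, 381 and 379.7 CPM, which did not (-0.46 ± 0.05, adjusted p = 0.000169). Tgfbr2 differed by -0.22 ± 0.05 (adjusted p = 0.0334), a call that held in 6 of the 12 leave-one-out fits (highest adjusted p 0.0868). The transcription regulators Id3 (-0.45 ± 0.08) and Bhlhe40 (-0.43 ± 0.06) were also below 0. Id2, an inhibitor of E proteins, went the other way (0.51 ± 0.11, adjusted p = 0.0236), as did Myc. Id2 was at 6.27 ± 0.291 and 4.68 ± 0.105 CPM without and 36.7 ± 1.43 and 38.9 ± 1.48 CPM with CIT in sgCtr and sgNop16 cells, and its call held in 6 of 12 such fits (highest adjusted p 0.0723).

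No heavy chain constant gene and no gene of the switch recombination machinery was called by edgeR. Counts per gene do not separate germline from switched transcripts, so switching itself was not measured. Of the 8 heavy chain constant genes, 0 were called by edgeR, and 1 had an unadjusted p under 0.05, as did 2227 genes in all. Values were above 0 at 7 of the 8 and below at 1, with a median of 0.23, counting Ighg1 and Ighe. Ighm, the µ gene, came closest, at 2529.6 ± 13.1 and 2204 ± 23.9 CPM without CIT and 2279 ± 51.2 and 2129 ± 42.4 CPM with it in sgCtr and sgNop16 cells (0.10 ± 0.03, adjusted p = 0.0577). DESeq2 and limma-voom each called 1 of the 8, and single leave-one-out fits called 0 or 1. Igha, the α gene, was at 957 ± 13.6 and 874 ± 14.7 CPM without CIT and 999 ± 26.4 and 949 ± 10.1 CPM with it (0.06 ± 0.03, adjusted p = 0.468). Ighd differed by -0.29 ± 0.15 (0.458), Ighg2b by 0.22 ± 0.12 (0.483), Ighg2c by 0.44 ± 0.28 (0.563) and Ighg3 by 0.24 ± 0.16 (0.589). Ighg1 and Ighe held at most 12 counts in all over the 3 libraries of each unstimulated group, so no difference of responses is given for them. Of 49 genes of the switch recombination machinery, 0 were called by edgeR (3 at an unadjusted p under 0.05) and 2 by DESeq2, with a median of 0.025. The γ genes resemble one another, so the split of reads among them is uncertain.

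Of 37 regulators of germline transcription and other transcription regulators of B cells, 5 were called below 0 (Irf8, Rel, Id3, Hoxc4 and Spib) and 2 above (Myb and Id2). Irf8, a factor that acts with PU.1 and SPIB in B cells, was at 149.8, 158 and 152 CPM in sgCtr_no and 168, 183 and 177 CPM in sgNop16_no. With CIT it was at 261, 290.2 and 269 against 226, 219 and 213 CPM, so the order of the guides turned (-0.52 ± 0.06, adjusted p = 0.000299). Spib was at 554 ± 8.63 and 541 ± 6.55 CPM without and 578 ± 10.2 and 509 ± 11.4 CPM with CIT (-0.15 ± 0.03, adjusted p = 0.0327). Myb, a factor of early lymphoid and cycling cells, was at 133, 129 and 135 CPM in sgCtr_no and 116, 109 and 118 CPM in sgNop16_no. It was lower in every sgNop16 library before CIT and higher in every one after it, at 61.7, 64.9 and 63.4 against 74.0, 75.5 and 77.0 CPM (0.46 ± 0.06, adjusted p = 0.000406). Spib and Hoxc4, a HOX factor, were called in 7 and 4 of the 12 leave-one-out fits (highest adjusted p 0.0941 and 0.0825).

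B cell surface and signalling genes also leaned below 0. Of 42 tested B cell identity genes, 9 were called below 0 and 0 above, 35 had values below 0, and the median was -0.14. Ms4a1, which encodes CD20, was at 327, 329 and 335 CPM in sgCtr_no and 306, 287 and 314 CPM in sgNop16_no, and fell to 274, 282 and 279 and 192, 190.2 and 193 CPM with CIT (-0.41 ± 0.04, adjusted p = 0.000152). The sgNop16 libraries were lower in both states, more so after CIT. Blk, a kinase of the B cell receptor, differed by -0.41 ± 0.06, the tetraspanin gene Cd53 by -0.32 ± 0.06 and the surface glycoprotein gene Cd24a by -0.18 ± 0.03. Mef2c (-0.50 ± 0.12) was called in 2 of the 12 leave-one-out fits (highest adjusted p 0.106). Of the 9, 5 held in all of these fits, namely Blk, Cd24a, Cd53, Cd74 and Ms4a1.

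Further lists, written after values had been seen, had no call above 0. Of 24 tested genes in a list named for endosomal nucleic acid sensing, 8 were called below 0. They were the receptors Tlr7 (-0.45 ± 0.10) and Tlr9 (-0.51 ± 0.09), their trafficking factor Unc93b1 (-0.29 ± 0.05), the adaptor kinase Irak2 (-0.48 ± 0.09), the CD180 partner gene Ly86 (-0.36 ± 0.04), the nucleases Pld4 (-0.34 ± 0.08) and Trex1, and Irf8. Ly86 and Trex1 are on the list but do not act in endosomal sensing, and Trex1 shares exons with Atrip on the same strand. Of these 8, 5 held in every leave-one-out fit, while Tlr7, Pld4 and Trex1 were called in 4, 4 and 5 of the 12 (highest adjusted p 0.106, 0.0907 and 0.0785), and 5 of the list were called with the replicate number as a block and 5 without the low-count filter. Tlr9, which reads unmethylated CpG DNA, was at 30.4, 28.1 and 27.1 and 33.1, 30.7 and 30.4 CPM without CIT and at 49.6, 51.7 and 47.6 against 39.5, 36.5 and 39.6 CPM with it in sgCtr and sgNop16 libraries. The stimulated groups did not overlap, with sgNop16 the lower. Of 43 lysosomal genes, 6 were called below 0, and all 6 held in every leave-one-out fit. Grn, which encodes progranulin, was at 142, 139 and 152 against 166, 175 and 169 CPM without and 285, 299 and 287 against 242, 241 and 228 CPM with CIT in sgCtr and sgNop16 libraries (-0.52 ± 0.05, adjusted p = 8.99e-05). The order of the guides thus turned, with no overlap in either state. Also among the 6 were the cathepsin genes Ctsc (-0.41 ± 0.04) and Ctsh (-0.28 ± 0.05) and the membrane protein gene Lamp2 (-0.35 ± 0.05).

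Several genes best known from myeloid cells were among those with the smallest p below 0. Cybb, the catalytic subunit of the phagocyte oxidase, was at 320.5, 322 and 307 CPM in sgCtr_no and 372, 357 and 374 CPM in sgNop16_no, and with CIT at 526, 514 and 521 against 408, 401 and 404 CPM (-0.58 ± 0.04). Without CIT each sgNop16 library was the higher, and with CIT each was the lower. Mpeg1, which encodes a pore protein, went from 229, 227 and 222 to 265, 277 and 257 CPM in sgCtr and from 253, 249.9 and 253 to 208, 211 and 212 CPM in sgNop16 cells (-0.50 ± 0.04, adjusted p = 1.51e-05). Apoe, a lipid carrier, was at 147, 151 and 155 and 165, 175 and 172 CPM without and 419, 441 and 444 and 326, 314 and 305 CPM with CIT in sgCtr and sgNop16 libraries (-0.64 ± 0.05, adjusted p = 4.42e-06). The summed level of all 16 macrophage markers lay between 542 and 563 CPM in sgCtr_no, 813 and 824 in sgCtr_CIT, 621 and 644 in sgNop16_no and 646 and 654 in sgNop16_CIT, and Cybb and Mpeg1 held most of it. Of the 16 markers, 7 were tested and 3 called below 0. The third, Adgre1, was at 0 counts in sgCtr_no and at 0.919, 0.617 and 1.21 CPM in sgNop16_CIT, and no difference is given for it. Lyz1, Lyz2, Cd14, Fcgr1, C1qa and Marco were at 0 counts in all 4 groups. The part of other cells in these calls was not tested.

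**Figure D3:**
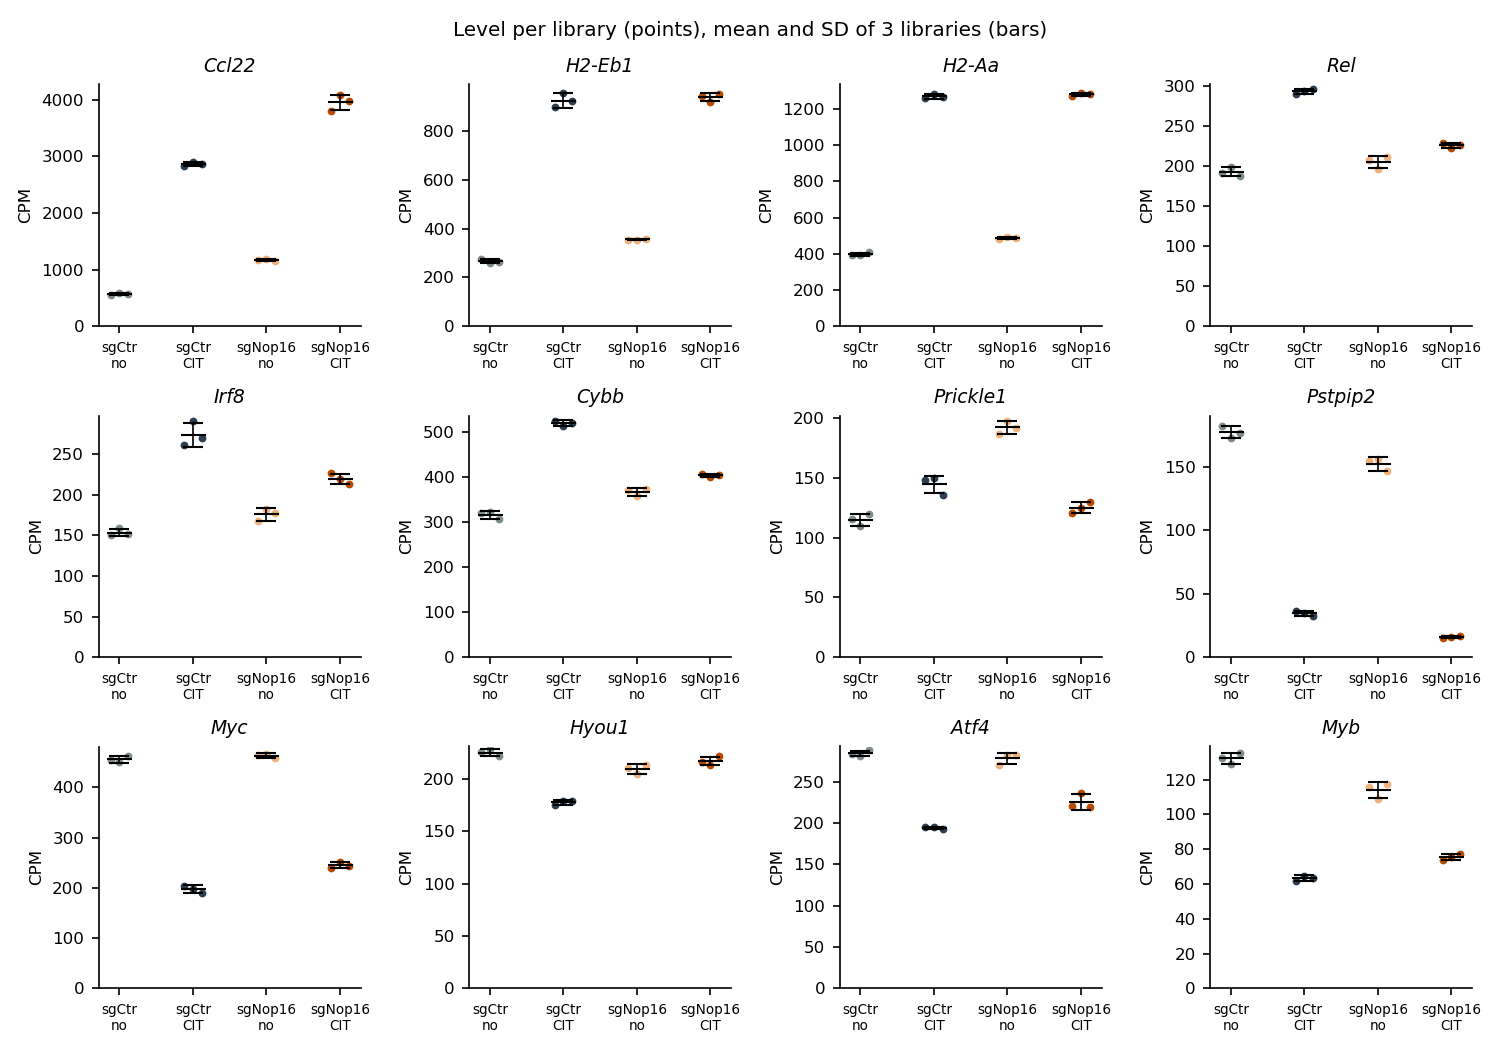
CPM of 12 genes in each library (points) of the 4 groups, with the mean and SD of 3 libraries (bars); each axis starts at 0. The genes of the first and second rows had differences of responses below 0, and Myc, Hyou1, Atf4 and Myb had them above 0, with stimulated sgNop16 libraries above all stimulated sgCtr libraries in these 4 genes.

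Among the lists with calls above 0 and none below were those of growth and protein production. Of 46 tested MYC targets, a list that includes Myc, 10 were called above 0 and 0 below, 39 had values above 0 and the median was 0.13. CIT lowered 38 of the 46 in sgCtr and 34 in sgNop16 cells, with a median log2 response of -0.41 in sgCtr and -0.27 in sgNop16 cells. Myc was at 454, 449.5 and 462 and 463, 467 and 458 CPM without CIT, where the groups overlapped, and at 204, 198 and 189.6 against 239, 251 and 244 CPM with it, where they did not (0.29 ± 0.04, adjusted p = 0.00183). The other 9 were Cad and Mthfd1 (0.29 ± 0.04) of nucleotide and folate metabolism, Shmt2 (0.22 ± 0.04), the spermidine synthase gene Srm (0.24 ± 0.04), Cdk4, Pa2g4, the helicase gene Eif4a1 and the amino acid transporter subunits Slc3a2 and Slc7a5. Myc, Mthfd1, Shmt2 and Srm were called in each of the 12 leave-one-out fits, and the number of MYC targets called lay between 4 and 10 in these fits. DESeq2 called 20.

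Ribosome production genes leaned the same way by small amounts. Of 116 tested ribosome biogenesis genes, 5 were called above 0 and 0 below, a share of 4.31% against 2.13% of all genes. The 2.13% spans genes at all levels, and no share among genes of like level was taken. Values were above 0 at 100 of the 116 (90 with library totals in place of TMM), against 8609 of all 16794, and their median was 0.089. The 5 were Fbl (0.21 ± 0.05), the methyltransferase of nucleolar RNA, Nolc1 (0.16 ± 0.03), the helicase gene Ddx21 (0.15 ± 0.04), Rrp1b (0.22 ± 0.04) and Rrp15 (0.24 ± 0.06), of which Rrp1b held in all 12 leave-one-out fits. DESeq2 called 18, and 11 were called with a robust fit, but 2 with library totals, 2 without the low-count filter, 2 with the replicate number as a block and 3 with the trend with exon length removed. Mybbp1a, a nucleolar protein gene, was at 935, 934 and 914 and 922, 919.8 and 902 CPM without and 671, 675 and 676 against 763, 753 and 748 CPM with CIT (0.18 ± 0.03, adjusted p = 0.00183). Of 84 ribosomal protein genes 1 was called, a share of 1.19% against 2.13% of all genes. It was Rps27l, a paralog of Rps27 that p53 induces (0.30 ± 0.05). Of 42 translation factor genes, 4 were called above 0 and 0 below, of which 2 held in every leave-one-out fit. Eif5a, which relieves stalled ribosomes, was at 1695 ± 21.3 and 1665 ± 26.1 CPM without and 1249 ± 20.3 and 1390.3 ± 12.2 CPM with CIT in sgCtr and sgNop16 cells (0.18 ± 0.03, adjusted p = 0.00144).

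The integrated stress response list had the largest share of calls above 0. Of 34 tested members, 12 were called above 0 and 0 below, and the median was 0.19. Atf4, the factor at its centre, was at 284, 282 and 288 and 270.4, 282 and 283 CPM without CIT and at 195, 196 and 193 against 221, 236 and 219 CPM with it in sgCtr and sgNop16 libraries (0.24 ± 0.05, adjusted p = 0.0102). The groups overlapped before CIT and did not after it. The serine synthesis genes Phgdh (0.17 ± 0.03) and Psat1 (0.26 ± 0.06) were called, as were Shmt2, Slc7a5, Slc3a2, Cth (0.55 ± 0.11), which makes cysteine, and Sesn2 (0.45 ± 0.10), a sensor that restrains mTORC1. Among them were 4 tRNA synthetases, Cars (0.35 ± 0.06), Gars (0.19 ± 0.04), Nars (0.18 ± 0.04) and Wars (0.24 ± 0.05). Ddit3, which encodes the stress factor CHOP, was not called, at 8.90 ± 0.19 and 12.2 ± 1.56 CPM without and 9.36 ± 0.387 and 12.5 ± 0.779 CPM with CIT (-0.04 ± 0.15, adjusted p = 0.95). Over 23 genes of cytosolic tRNA synthetases and their complex, a list written after values had been seen, 6 were called above 0 and 0 below, and 22 had values above 0. Of these 6, 2 held in every leave-one-out fit, and Cars, Gars, Nars and Wars were already counted in the stress response list. Shmt2, Slc7a5 and Slc3a2 of the stress response list were also counted among the MYC targets. Atf4, Cars, Cth, Phgdh and Shmt2 were the 5 stress response members called in every leave-one-out fit.

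Of 42 tested unfolded protein response genes, 8 were called above 0 and 0 below, with a median of 0.087. Hyou1, a large chaperone of the endoplasmic reticulum, had the smallest p of all genes above 0. It was at 225, 228 and 222 against 210.0, 204 and 214 CPM without CIT and at 175, 179 and 179 against 216, 213 and 221 CPM with it in sgCtr and sgNop16 libraries (0.39 ± 0.04, adjusted p = 9.46e-05). The order of the guides turned with CIT, with no overlap in either state. The others were the chaperones Hspa5 (0.18 ± 0.04), Hsp90b1 (0.17 ± 0.03) and Calr (0.14 ± 0.03), the disulfide isomerase Pdia3 (0.12 ± 0.03), Sdf2l1 (0.26 ± 0.06), and Herpud1 (0.29 ± 0.07) and Sel1l (0.22 ± 0.05) of the degradation pathway. Hyou1 alone was called in all 12 leave-one-out fits, where between 1 and 6 members were called. With library totals in place of TMM 6 were called above 0 and 1 below, with the trend with exon length removed 4 above and 0 below, and without the low-count filter 4. Stretches upstream of Hspa5 and Hsp90b1 are shown because each holds the ER stress element, which NF-Y and ATF6 read (CCAAT, a spacer of 9 bases and CCACG, here in capitals). In Hsp90b1 it lies on the opposite strand. They are from RefSeq on GRCm38.p6 at chr2:34771940-34772089 (plus strand) and chr10:86705445-86705594 (minus strand), 5′ to 3′ along the gene.
Hspa5: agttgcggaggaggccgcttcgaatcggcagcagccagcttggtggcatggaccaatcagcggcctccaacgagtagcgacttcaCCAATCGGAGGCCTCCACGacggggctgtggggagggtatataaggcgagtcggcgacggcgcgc
Hsp90b1: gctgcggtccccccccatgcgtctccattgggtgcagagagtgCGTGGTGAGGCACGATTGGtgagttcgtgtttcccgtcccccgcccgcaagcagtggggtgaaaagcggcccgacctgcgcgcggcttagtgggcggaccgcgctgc
Over the same windows as above, 9 of 32 unfolded protein response genes in the promoter table held the element (28.1%), against 16 of all 10307 tested genes (0.155%). Of 109 genes called above 0 it was in 3 (Hspa5, Hsp90b1 and Calr), and of 157 called below 0 in 0. The Y box and this element were added after values had been seen. The ATF4 element counted further below was also not among the motifs first planned.

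Chaperones outside the endoplasmic reticulum leaned the same way. Of 30 such genes, in a list written after values had been seen, 6 were called above 0 and 0 below, and 30 had values above 0 (28 with library totals in place of TMM). Hsp90ab1, the constitutive HSP90 gene, differed by 0.12 ± 0.02, at 4938 ± 46.3 and 4639 ± 50.8 CPM without and 4136 ± 43.5 and 4212 ± 68.1 CPM with CIT in sgCtr and sgNop16 cells. Its co-chaperone Stip1 (0.20 ± 0.04), the chaperonin subunits Cct5 (0.19 ± 0.04) and Cct6a (0.16 ± 0.03), Hsp90aa1 (0.13 ± 0.03) and Trap1 (0.17 ± 0.04) made up the rest. Hsp90ab1 and Stip1 were called in every leave-one-out fit, and without the low-count filter 3 of the list were called.

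**Figure D4:**
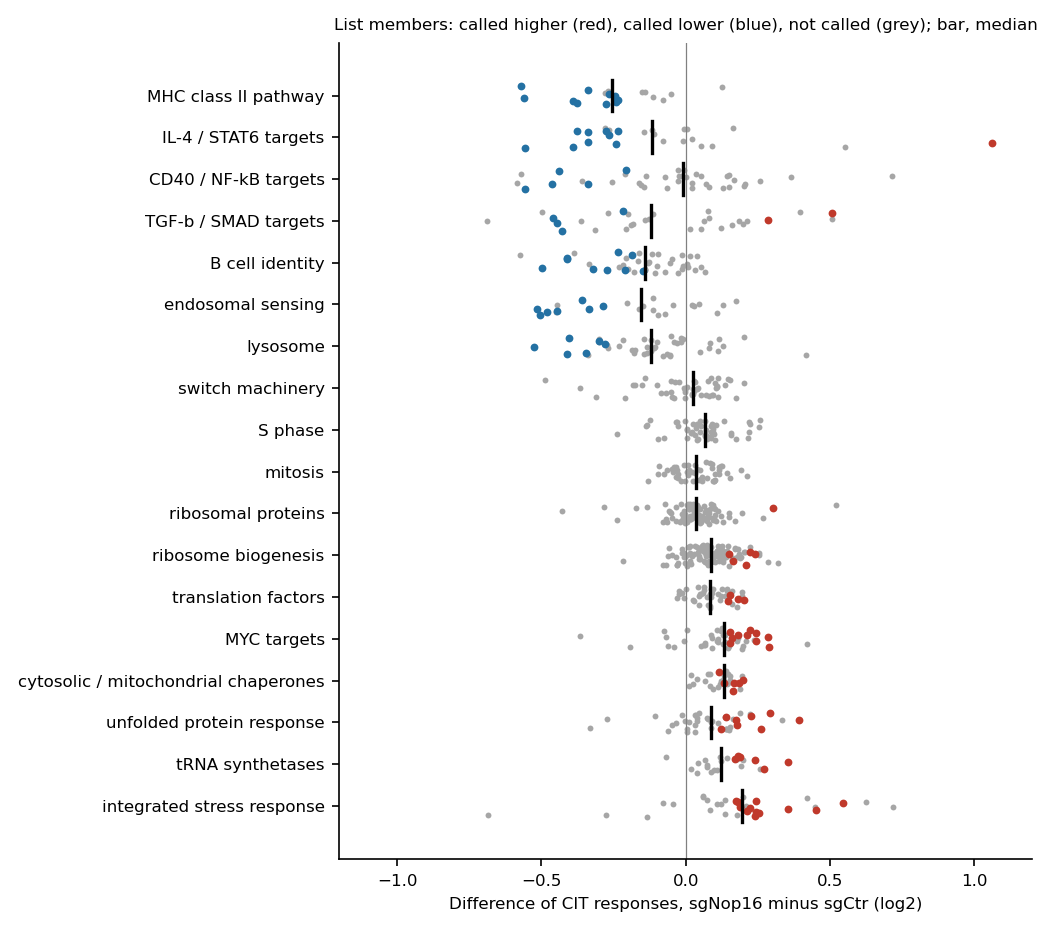
Difference of CIT responses (x axis, log2) for the tested members of 18 gene lists (rows), with called members in red (above 0) or blue (below 0), other members in grey and a bar at the list's median. The medians of these 18 lists run from -0.26 for the MHC class II pathway to 0.19 for the integrated stress response. The 18 were chosen from a larger set. Some lists not shown had medians beyond this range (macrophage markers -0.30, heavy chain constant genes 0.23, erythroid markers 0.45). The class II, endosomal, lysosome, translation factor, chaperone and tRNA synthetase lists were written after values had been seen. Beyond the limit of 1.2 lie 8 members, 1 of them called.

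Of 45 tested genes of the p53 list, which includes Trp53, 5 were called above 0 and 0 below, with a median of 0.055. They were Trp53 (0.19 ± 0.05), Sesn2, Rps27l, Psrc1 (0.48 ± 0.07) and Trp73. The calls of Trp53 and Sesn2 held in 1 and 2 of the 12 leave-one-out fits (highest adjusted p 0.166 and 0.102) and those of the other 3 in all. Trp73, which encodes a relative of p53, was at 19.0, 18.3 and 19.1 against 13.5, 11.4 and 15.9 CPM without and 60.9, 61.8 and 58.6 against 74.5, 72.5 and 65.6 CPM with CIT (0.70 ± 0.12, adjusted p = 0.00749). Of 34 cholesterol and fatty acid synthesis genes, 4 were called above 0 and 1 below. Scap, whose protein escorts the transcription factor SREBP, was at 108, 114 and 111 and 103, 108 and 104 CPM without and 254, 249.7 and 255 against 306, 297 and 284 CPM with CIT (0.31 ± 0.05). The desaturase genes Scd2 (0.27 ± 0.04) and Fads2 (0.68 ± 0.13) were above 0 and Scd1 (-0.25 ± 0.05) below. Of the antibody light chains and J chain, 8 tested, 1 was called. Igkc, the κ constant gene, was at 774, 753 and 738 and 762, 748 and 724 CPM without and 745, 726 and 757 against 836, 864 and 849 CPM with CIT (0.21 ± 0.04, adjusted p = 0.00477). The antibody folding factor gene Mzb1 differed by 0.28 ± 0.04 and shares annotated exons with another gene on its strand. Nlrc5, the coactivator of MHC class I genes, was below 0 (-0.45 ± 0.06), the 1 call below in the MHC class I list of 21. The 2 calls above in that list were Calr and Pdia3, which were also counted in the unfolded protein response list. They were called in 3 and 0 of the 12 leave-one-out fits (highest adjusted p 0.103 and 0.154).

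Further lists with 0 calls by edgeR were S phase (52 tested, 5 at an unadjusted p under 0.05), mitosis (50 and 5), PRC2 with H3K27 demethylases (14 and 4), glycolysis and hypoxia (34 and 10), mitochondrially encoded genes (13 and 3), replication histones (35 and 1), RGS and DUSP genes (25 and 3) and metallothioneins with zinc genes (12 and 0). Their medians lay between -0.06 and 0.095. In the same order, 42, 33, 6, 26, 11, 18, 10 and 7 of their tested genes had values above 0, against 8609 of all 16794. DESeq2 called 2 S phase genes, 1 mitosis gene, 1 PRC2 gene and 5 glycolysis genes and 0 in the other 4 lists. Of 33 immediate early genes, 3 were below 0 (Egr1 at -0.51 ± 0.10, Btg1 at -0.46 ± 0.07 and Zfp36l1 at -0.21 ± 0.03) and 1, Myc, above. Of 37 interferon response genes 1 was called, a share of 2.7% against 2.13% of all genes. It was Trex1, which shares exons with Atrip on the same strand. Among IL-4 targets that were not called, Cish, a feedback inhibitor, went from 1.596 ± 0.567 to 79.0 ± 3.28 CPM in sgCtr and from 1.56 ± 0.435 to 76.8 ± 4.24 CPM in sgNop16 cells, a log2 response of 5.63 with each guide (adjusted p = 1).

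The 358 genes fell into 6 shapes by the signs and sizes of their responses. At 120 genes (33.5%) both responses were rises and the sgNop16 one was smaller, with median log2 responses of 0.98 in sgCtr and 0.58 in sgNop16 cells. At 87 genes (24.3%) both were falls, smaller in sgNop16 (-0.46 and -0.24). At 56 (15.6%) the fall was larger in sgNop16 (-0.38 and -0.80), and at 27 (7.54%) the rise was larger (0.67 and 0.85). Opposite signs were seen at 68 genes, 34 in each order. A smaller response with sgNop16 was thus the shape at 207 genes and a larger one at 83. These shapes use the same means as the test and carry no test of their own. Of the 210 genes below 0, the guide difference was called without CIT alone at 65, with CIT alone at 99, in both states at 32 and in neither at 14. For the 148 above 0 these numbers were 38, 83, 11 and 16. Before CIT, 90 of the 210 were called higher and 7 lower in sgNop16 cells, and after it 8 and 123.

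The largest differences below 0, among genes with at least 5 CPM in one group, started with Fdx1l and Trex1, whose exons overlap other genes on the same strand, so that their split is uncertain. Below these came Abca5 (-1.36 ± 0.34), a lipid transporter, Ipcef1 (-1.14 ± 0.21), Zfp811 (-1.14 ± 0.25), Echdc3 (-1.11 ± 0.19), Pou2f3 (-1.04 ± 0.20), Prickle1, Endou (-0.93 ± 0.22), Pira2 (-0.93 ± 0.22), Pstpip2, Zfp862-ps (-0.80 ± 0.15), Cd300lf (-0.72 ± 0.13), Cacnb4 (-0.72 ± 0.17) and Ms4a6c (-0.71 ± 0.14). Prickle1, of the planar polarity pathway, was at 116, 109.7 and 119 and 187, 198 and 192 CPM without and 148, 149 and 136 and 121, 124 and 129.9 CPM with CIT in sgCtr and sgNop16 libraries. It rose in sgCtr and fell in sgNop16 cells, and the groups did not overlap in either state (-0.95 ± 0.06). Pstpip2, which encodes an F-BAR protein, fell from 182, 172 and 177 to 36.7, 34.6 and 32.8 CPM in sgCtr and from 154, 156 and 146 to 14.8, 15.8 and 16.7 CPM in sgNop16 cells (-0.92 ± 0.07, adjusted p = 4.67e-06). Pou2f3, the defining factor of tuft cells, fell from 74.5, 78.2 and 72.9 to 5.53, 3.65 and 4.66 CPM and from 52.6, 52.7 and 54.8 to 1.66, 1.95 and 1.09 CPM. With Avil (-0.29 ± 0.06), Ptgs1 (-0.36 ± 0.08) and Spib it was 1 of 4 called below 0 among 15 tested genes that tuft cells express, a list written after values had been seen, and 2 of the 4 held in every leave-one-out fit. Abca5, Endou, Pira2 and Cacnb4 were each called in 2 of the 12 leave-one-out fits (highest adjusted p 0.133, 0.0989, 0.101 and 0.0889), and Zfp811 and Trex1 in 5 and 5 (highest adjusted p 0.0839 and 0.0785). Abca5 held 36 counts in all over the sgCtr_no libraries and was not called with counts divided by 4.

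The largest differences above 0 started with Exosc6, whose libraries were at 10.1, 0.767 and 10.7 CPM in sgCtr_no and 4.21, 3.25 and 0.387 CPM in sgNop16_CIT. These spread widely within groups, and Exosc6 shares exons with the synthetase gene Aars. Next were Ppp1r3e (1.15 ± 0.26), Il2ra, Ccpg1 (0.98 ± 0.20), Susd2 (0.84 ± 0.15), Rangrf, Pgbd5 (0.76 ± 0.18), Prrg4 (0.75 ± 0.13), Trp73, Fads2, Il9r (0.63 ± 0.14), Ifitm1 (0.62 ± 0.15), Tecpr2 (0.58 ± 0.10), Cth and Ank3 (0.54 ± 0.12). Susd2, a membrane protein gene, went from 1.38, 1.62 and 1.52 to 34.0, 34.0 and 38.5 CPM in sgCtr and from 1.24, 1.05 and 1.29 to 52.2, 50.2 and 49.01 CPM in sgNop16 cells. The unstimulated sgNop16 libraries were the lower and the stimulated ones the higher, with no overlap. Rangrf, a factor of nuclear transport, was at 22.3, 23.4 and 21.0 and 23.8, 23.4 and 22.4 CPM without and 16.7, 15.3 and 16.0 and 27.2, 26.8 and 31.9 CPM with CIT (0.78 ± 0.12, adjusted p = 0.00239). Its unstimulated groups overlapped, and after CIT each sgNop16 library was the higher. Of smaller size but with small p were the nucleotidase family gene Nt5dc2 (0.51 ± 0.06, adjusted p = 0.000348) and the polarity gene Llgl1 (0.48 ± 0.06, 0.000664). Below 0 the same held for Adssl1 (-0.55 ± 0.05, 3.83e-05), an enzyme of AMP synthesis. Of the genes above 0 named here, Ppp1r3e, Ccpg1, Pgbd5, Il9r, Ifitm1 and Ank3 were called in 4, 8, 2, 2, 1 and 3 of the 12 leave-one-out fits (highest adjusted p 0.0907, 0.0581, 0.108, 0.0795, 0.125 and 0.0856).

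A difference of responses depends on the scale on which responses are taken. On the CPM scale, 11 of the 358 genes had the opposite sign to that on the log2 scale, and all 11 were below 0 on the log2 scale. They were Abca5, Arhgef40, Atp2a3, Bcl2a1d, Bcl2l1, Ccl22, Cd24a, Endou, Gpr157, Pou2f3 and Pstpip2. At 9 of them the CPM difference exceeded 2 SE. Cd24a fell from 1673 ± 7.49 to 476 ± 13.8 CPM in sgCtr and from 1357 ± 32.6 to 339.7 ± 4.07 CPM in sgNop16 cells. That is a fall smaller by 179.7 ± 21.0 CPM with sgNop16, but a larger one on the log2 scale (-1.81 and -1.998).

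The other motifs were counted in the same windows. Over the 10307 tested genes in the promoter table, 109 called above and 157 called below 0, with both strands read, the E-box CACGTG was in 11.4%, 13.8% and 6.37%. The STAT spacing TTCNNNGAA was in 8.37%, 3.67% and 8.92% and the STAT6 spacing, TTC and GAA with 4 bases between them, in 6.52%, 4.59% and 7.64%. The κB consensus was in 6.33%, 7.34% and 5.73%, the p53 half-site in 8.03% of all, 12 of 109 and 9.55% and the ATF4 element TGATGNAA in 2.77%, 3.67% and 4.46%. A match is a run of letters, not a site.

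Exon length, the merged length of all annotated exons of a gene, moved with the difference. Genes called below 0 had a median exon length of 5197 bases and those above 0 of 3770, against 4375 over 10535 genes with a mean over 2 on the log2 CPM scale. Across these genes, which are not independent, Spearman's rho was -0.111 with length and 0.0906 with GC content. The median GC content was 49.4% below, 51.2% above and 49.6% over all. The nuclear RNAs Malat1 (-0.34 ± 0.07) and Neat1 (-0.41 ± 0.05) were called below 0. Neat1 was at 425, 407 and 447 and 507, 515 and 494 CPM without and 432, 438 and 441 and 405, 382 and 382 CPM with CIT in sgCtr and sgNop16 libraries. With the length trend removed in each library, 372 genes were called, 119 above and 253 below 0, and 310 of the 358 were among them. The part of RNA quality or nuclear RNA content in the calls was not tested.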

How the data were processed

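RNA of 12 CH12F3-2A libraries was sequenced after preparation with a directional kit from total RNA, per the labels' protocols. The submitters' processing notes list HISAT2 2.2.1, StringTie 2.2.1 and build GRCm39 and give no role for them. The authors deposited estimated counts per Ensembl gene as whole numbers, unscaled. Low values pile up at 4, so 1 fragment may be worth about 4 counts, which no source states. Symbols were found for 51948 of 56941 genes, and the others held at most 0.365% of a library.

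Genes were filtered with filterByExpr and tested with edgeR 4.0.16 in R 4.3.3 (TMM factors, glmQLFit and glmQLFTest, 1 mean per group over all 12 libraries, common dispersion 0.015). Log2 values carry the model's SE, levels are TMM-scaled CPM, and p-values were adjusted over all 16794 genes (Benjamini-Hochberg). A group with at most 12 counts was taken as at the floor (3 fragments at 4 counts), which covers counting error only. The filter, scaling, replicate number as a block, counts divided by 4, a 1.5-fold minimum, each library left out, DESeq2 1.42.0 and limma-voom (limma 3.58.1) were the alternatives. A robust fit and removal of a length trend were added after the data were seen. The code was tested on simulated data.

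The comparison and the 33 gene lists were chosen with earlier results of these data known, and 7 more lists (class II pathway, lysosome, tRNA synthetases, chaperones, translation factors, tuft cell genes and endosomal sensing) after values were seen. In all they held 1298 genes, of which 18 matched no symbol. Genes were named by rule: Nop16, the heavy chain constant genes, the 15 largest differences each way and the 10 smallest p each way among called genes with at least 5 CPM in a group and no gene model name, and up to 2 called members each way per list, or the 1 with the smallest p. Some genes that fall under this rule are not reported here. Others were named after their values were seen. Replicates, which the design text calls biological, differed by more than sampling noise in every pair of a group (mean chi-square over genes of 2.19 to 3.66, in units of 4 counts). In the GENCODE annotation of GRCm38, Ccpg1, Cct6a, Cd74, Ddit3, Eif4a1, Exosc6, Fdx1l, Gm4149, Hsp90b1, Malat1, Mzb1, Neat1, Pa2g4, Scd2 and Trex1 share exons with another gene on their strand. Arhgef40, Avil, Bhlhe40, Cacnb4, Cars, Ccpg1, Cct6a, Cdk4, Ciita, Cish, Ddit3, Def6, Grn, H2-DMa, H2-Oa, Hsp90b1, Ipcef1, Irak2, Llgl1, Malat1, Ms4a6c, Mthfd1, Myb, Mybbp1a, Nlrc5, Nt5dc2, Pax5, Pdia3, Pstpip2, Ptgs1, Rangrf, Rrp1b, Scap, Shmt2, Trap1, Trp73, Zfp36l1 and Zfp862-ps share them with one on the other strand, and no source states the strand setting of the counting, so how their reads were divided is uncertain.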

Additional observations from a re-analysis of the deposited data

Results flagged for a closer look

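The CIT response was tested for a difference between the guides at every gene, and 358 genes passed. Among these, 21 genes with at least 5 CPM in a group had called responses of opposite direction in sgCtr and sgNop16 cells. Those with a rise under sgCtr and a fall under sgNop16 were Fdx1l (log2 difference of -2.41), Trex1 (-1.57), Echdc3 (-1.11), Prickle1 (-0.95), Zfp862-ps (-0.80), Msh5 (-0.70), Mpeg1 (-0.50), Slc17a9 (-0.46), Cyth4 (-0.41), Sirpa (-0.40), Fam43a (-0.25), Slc44a2 (-0.23) and Spib (-0.15). In the reverse order were Gm4149 (1.47), Rangrf (0.78), Pgbd5 (0.76), Fads2 (0.68), Def6 (0.47), Ankrd33b (0.32), Rps27l (0.30) and Mzb1 (0.28).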

How the results depend on the processing

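No gene that an alternative called together with the fit reported above changed sign. Without a low-count filter, which tested more genes, 207 genes were called (83 above and 124 below 0), with a 1.5-fold minimum 1 (0 and 1), and with DESeq2 767 (366 and 401). Leaving out 1 library gave 215 to 277 calls, 69 to 108 above and 130 to 190 below 0. The counts under the other settings lay within 1.5 times of 358, with 358 calls under RLE size factors, 376 with library totals, 466 with at least 5 CPM in 3 libraries, 415 with counts divided by 4, 418 with limma-voom, 475 with the robust fit and 372 with the length trend removed. With the replicate number as a block 278 genes were called (113 above and 165 below 0), 267 of them among the 358. Same-numbered libraries did not vary together. Their deviations from the group means correlated at -0.308 to 0.18 over 18 pairs and 10610 genes, and 4 of 12 libraries correlated best with their own number, so the numbers were not taken as pairs. Of the named genes' values under the alternatives, 1757 stayed on their side of the threshold, 353 lost the call and 17 gained it. Ighe, which was not called, changed sign in 2 of 12 leave-one-out fits, and no other gene named by the rule changed sign in any setting. Single genes with under 5 CPM in each group, Adgre1 among them, rest on few fragments.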
